A study of Homo sapiens with 9 samples.

Results

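Semaphorins are secreted or membrane-bound ligands, first known for steering growing axons, and plexins are the receptors that carry their signal into the cell. Most secreted class 3 semaphorins need a neuropilin, NRP1 or NRP2, as the ligand-binding partner of a plexin, whereas membrane-bound semaphorins generally bind plexins directly. The intracellular part of plexins acts on small GTPases and thereby on integrin adhesion and the actin cytoskeleton, which is how the family bears on the movement of breast cancer cells. Neuropilins also bind vascular endothelial growth factors, so that class 3 semaphorins and VEGF can share a receptor.

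The genes described here are those whose symbol names a semaphorin of classes 3 to 7, a plexin of subfamilies A to D, or NRP1 or NRP2, on array probes paired with exactly 1 gene symbol. This gave 30 genes of 18417, of which 19 are ligands (semaphorins) and 11 are receptors (9 plexins and 2 neuropilins). Where a gene had several probes, the brightest probe by mean signal was used, which concerned NRP2 and SEMA4D with 2 probes each. SEMA4C was not analysed here. Of the 30 genes, 27 had a mean signal above 6.85, below which the dimmest 25% of probes lay, and the other 3 were SEMA3E, SEMA6A and PLXNC1.

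RNA came from MDA-MB-231, a mesenchymal line of human breast cancer that lacks hormone receptors and HER2 amplification. The cells were untreated (UT), treated with 2.5 μM SID peptide (SID), or treated with the scrambled peptide (SCR), and after 24 hours their RNA was measured on 9 gene arrays from Affymetrix, with 3 arrays in each group. The SID peptide is a decoy of the SIN3 interaction domain of the MYC antagonist MAD, and occupies the PAH2 domain with which the corepressor SIN3 binds transcription factors such as MAD and TGIF1. The comparison of SID with SCR asks what the decoy sequence does beyond a peptide of the same kind, and the comparisons with UT ask what either peptide treatment does. One cell line was used, the labels do not say whether the replicates are separate cultures, and the methods of the study speak of fewer biological replicates than there are arrays in a group, without saying which. The p-values then measure only the spread between these arrays. All values below are log2 signals as deposited or differences between them, and signals of different genes were not compared with each other, since probes differ in brightness.

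The 9 arrays fell into 2 sets, with replicates 1 and 2 of either peptide in one and replicate 3 of either peptide in the other, together with the 3 UT arrays. Correlations over 19460 probes were at least 0.963 among the 4 peptide arrays of replicates 1 and 2, 0.992 or more among the other 5 arrays, and 0.908 to 0.929 between these sets. The supplement of the study heads SCR replicate 3 with another time than the 24 hours of the labels. For replicates 1 and 2, peptide treatment and array set cannot be told apart in any comparison with UT. The main results are therefore given with replicate 3 and without it. This split was chosen from the same arrays, so tests of replicates 1 and 2 against replicate 3 are not independent of that choice. The 7 markers of mesenchymal breast cancer cells (VIM, CD44, AXL, CAV1, MSN, MET and ANXA1) were all above the median probe, with a mean signal of 13.2 to 13.28 in the 4 peptide arrays of replicates 1 and 2 and of 11.79 to 11.9 in the others.

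Promoter sequences of 3 semaphorins that carry the differences below are shown first, each as the 250 bases before the transcription start in RefSeq (GRCh38.p14), 5′ to 3′ on the strand of the gene. SEMA3D and SEMA3B are class 3 ligands that differed in opposite directions between the peptides in replicates 1 and 2, and SEMA6D is a ligand that was below UT by about the same amount under both peptides. They were searched on both strands for CACGTG, the E-box read by MYC, MAX and MAD, for CTTTGA, a core of TCF and LEF sites, and for TGTCA, a core of TGIF sites. Capitals mark a match.
SEMA3D, chr7:85187057-85187306, minus strand: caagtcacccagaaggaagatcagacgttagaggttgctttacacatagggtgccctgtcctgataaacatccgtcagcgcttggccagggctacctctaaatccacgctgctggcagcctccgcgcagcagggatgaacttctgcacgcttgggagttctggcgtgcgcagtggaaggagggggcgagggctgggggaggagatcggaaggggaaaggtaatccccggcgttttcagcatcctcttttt
SEMA3B, chr3:50272869-50273118, plus strand: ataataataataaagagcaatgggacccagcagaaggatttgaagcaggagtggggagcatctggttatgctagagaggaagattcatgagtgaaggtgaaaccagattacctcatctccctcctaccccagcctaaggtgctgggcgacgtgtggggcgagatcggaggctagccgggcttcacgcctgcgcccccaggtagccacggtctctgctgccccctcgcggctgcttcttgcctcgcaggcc
SEMA6D, chr15:47183839-47184088, plus strand: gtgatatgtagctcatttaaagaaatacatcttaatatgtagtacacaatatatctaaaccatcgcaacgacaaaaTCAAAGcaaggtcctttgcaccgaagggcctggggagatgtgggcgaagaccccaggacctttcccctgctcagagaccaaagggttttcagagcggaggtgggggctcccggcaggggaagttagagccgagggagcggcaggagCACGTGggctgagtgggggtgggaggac
None of these letters was in the windows of SEMA3D and SEMA3B. SEMA6D held CACGTG from 28 to 23 bases before its start and CTTTGA on the opposite strand (TCAAAG as printed) from 174 to 169 bases before it. SEMA3A, NRP1, SEMA6A and SEMA6B had no RefSeq promoter to search. The other 26 of the 30 genes matched a RefSeq promoter. CACGTG was found in 3 of these 26 (SEMA3E, SEMA4D and SEMA6D) and in 6.34% of 35116 promoters, CTTTGA in 2 of them (PLXNA1 and SEMA6D) and in 11.2% of promoters, and TGTCA in 7 of them and in 34% of promoters. A match describes the letters only.

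The largest differences between SID and SCR were in the class 3 ligands SEMA3A and SEMA3D, which were lower in SID in replicates 1 and 2 and not in replicate 3. SEMA3B, a further class 3 ligand, was higher in SID than in the SCR array of the same number in all 3 replicates. The labels number the arrays but do not say that arrays of the same number are paired, here or below. SEMA3A and SEMA3D are consecutive protein-coding genes on chromosome 7, next to SEMA3E, which did not share their values. Among the receptors, PLXNA2 was lower in SID in replicates 1 and 2. By limma on all 9 arrays, none of these differences was called. Calls are differences with an adjusted p under 0.05 that also exceed 1 in size on the log2 scale, which is the fold limit the study used. P-values were adjusted by the Benjamini-Hochberg method over 19460 probes.

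SEMA3A, a ligand of NRP1 that repels axons and can restrain migration, had signals of 11.94, 11.64 and 11.97 in UT replicates 1 to 3, of 10.30, 10.37 and 11.61 in SCR, and of 7.38, 6.68 and 11.66 in SID. In replicates 1 and 2 SID was below SCR and SCR below UT, whereas replicate 3 of SCR and SID lay beside or just under the UT arrays. SID minus SCR was -2.92, -3.69 and 0.05 in replicates 1, 2 and 3, with a mean of -2.19 (SE 1.18, n = 3 per group, adjusted p = 0.692 by limma on 9 arrays). With replicate 3 of SCR and SID fitted as groups of their own, SEMA3A in replicates 1 and 2 was 3.31 lower in SID on the log2 scale (log2 difference -3.31, SE 0.22, limma adjusted p = 0.000167), and with these 4 arrays alone the same difference had an SE of 0.25 and a limma adjusted p of 0.0161. The difference in replicates 1 and 2 was itself unlike that in replicate 3, by -3.36 (SE 0.38, limma adjusted p = 0.00615).

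SEMA3D, known in heart and vessel development, had signals of 7.05, 7.05 and 7.18 in UT, of 8.74, 9.47 and 6.69 in SCR, and of 6.26, 5.83 and 7.05 in SID. SCR replicates 1 and 2 were above every UT array and SID replicates 1 and 2 were below every UT array, and replicate 3 had SID above SCR. The UT arrays belong to the other array set, so which peptide moved away from untreated cells cannot be told. The SID signals of SEMA3D in replicates 1 and 2 and its SCR signal in replicate 3 were under 6.85, the bound of the dimmest 25% of probes by mean. So was the signal of SEMA3A in SID replicate 2. SID minus SCR was -2.48, -3.64 and 0.36, with a mean of -1.92 (SE 0.66, n = 3 per group, limma adjusted p = 0.657). In replicates 1 and 2 SEMA3D differed by -3.06 (SE 0.23, limma adjusted p = 0.000278; 0.0185 with the 4 arrays alone), and the difference from replicate 3 was -3.42 (SE 0.41, limma adjusted p = 0.00729).

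SEMA3B, a class 3 ligand described as a tumor suppressor, had signals of 10.31, 10.25 and 10.43 in UT, of 7.95, 8.44 and 10.52 in SCR, and of 9.43, 9.53 and 10.87 in SID. SID lay above SCR of the same number each time, but the groups overlapped, since SCR replicate 3 was above SID replicates 1 and 2. SID minus SCR was 1.48, 1.09 and 0.34, with a mean of 0.97 (SE 0.67, n = 3 per group, limma adjusted p = 0.758). In replicates 1 and 2 the difference was 1.28 (SE 0.16, limma adjusted p = 0.00135; 0.0272 with the 4 arrays alone). Its excess over replicate 3 was 0.94 (SE 0.27) and did not pass (limma adjusted p = 0.0790). Both peptides were below UT in these replicates, SCR by more than SID.

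The remaining class 3 ligands differed little between the peptides. SEMA3C, which promotes tumor cell movement in several cancers, had SID minus SCR differences of -0.12, -0.26 and -0.19. SEMA3E, a direct ligand of PLXND1 that needs no neuropilin, had signals from 4.95 to 5.26 on all 9 arrays, within the dimmest 25% of probes. For SEMA3F, an NRP2 ligand, and SEMA3G the differences ran from -0.03 to 0.32 and from -0.27 to 0.39 over the 3 replicates.

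All 5 class 4 ligands, which are membrane-bound, had a mean SID minus SCR difference above 0, from 0.04 to 0.82. Over all probes, 10742 of 19460 had a mean above 0. In replicates 1, 2 and 3 the difference was above 0 for 5, 3 and 2 of these 5 ligands. SEMA4G had signals of 7.05, 7.34 and 7.33 in UT, of 7.36, 7.35 and 7.26 in SCR, and of 8.13, 9.06 and 7.25 in SID, so that SID replicates 1 and 2 alone were above all other arrays. Its difference of 1.24 in replicates 1 and 2 (SE 0.26) passed limma with replicate 3 as groups of its own (adjusted p = 0.0127) but not with the 4 arrays alone (adjusted p = 0.0782). SEMA4F showed the same order with differences of 0.81, 0.72 and -0.03. Its difference of 0.76 in replicates 1 and 2 (SE 0.12) had a limma adjusted p of 0.0298 with the 4 arrays alone, and was not called only for being under the fold limit. SEMA4D, the ligand of PLXNB1, had differences of 0.55, -0.07 and 0.03, and its second probe gave 0.23, 0.53 and -0.10. SEMA4A and SEMA4B had mean differences of 0.04 and 0.08.

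In classes 5, 6 and 7 the peptides differed little from each other, also where both differed from UT. Mean SID minus SCR differences were -0.09 for SEMA5A, -0.03 for SEMA6D and -0.08 for SEMA7A. SEMA5B, SEMA6A, SEMA6B and SEMA6C had mean differences between -0.09 and 0.28.

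**Figure D1:**
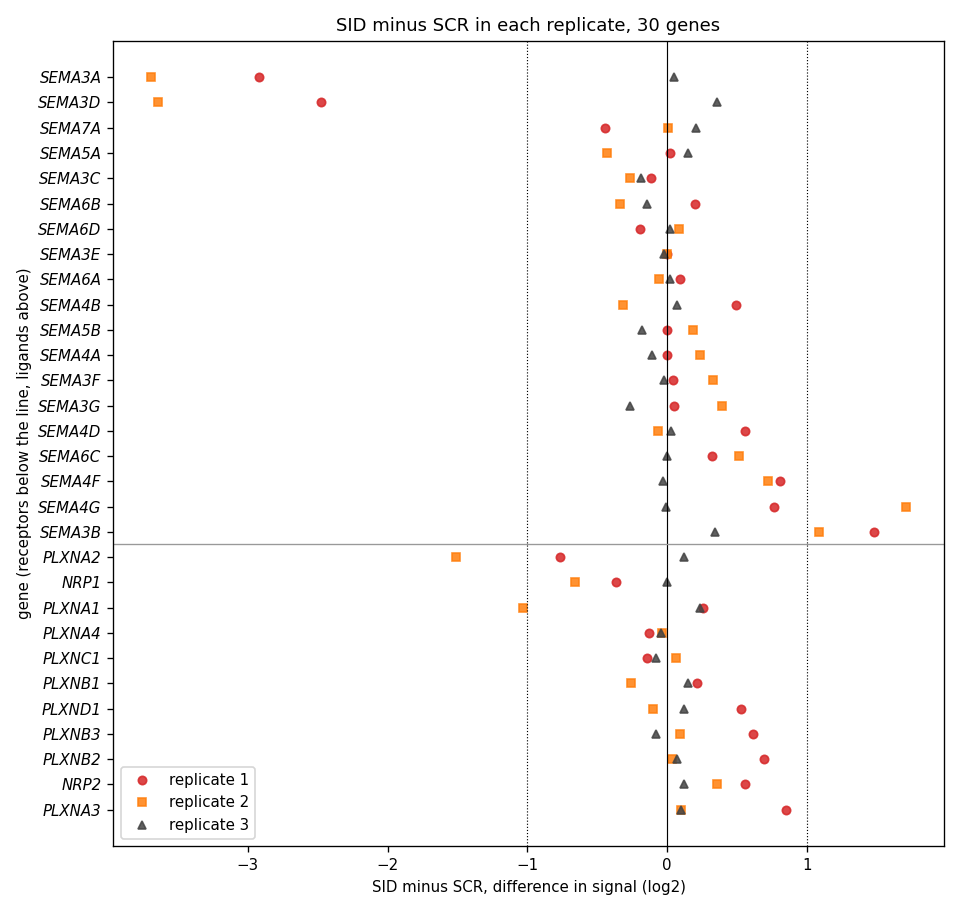
SID minus SCR difference in log2 signal (horizontal axis) in replicate 1 (red circles), replicate 2 (orange squares) and replicate 3 (dark triangles) for the 19 ligands above the gray line and the 11 receptors below it, ordered by the mean of replicates 1 and 2. Dotted lines mark the fold limit of 1. SEMA3A and SEMA3D lie far left in replicates 1 and 2, and every replicate 3 value lies between -0.27 and 0.36.

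Among the receptors, PLXNA2, a class A plexin that serves class 3 and class 6 semaphorins, had signals of 7.28, 7.31 and 7.50 in UT, of 8.30, 8.97 and 7.39 in SCR, and of 7.53, 7.46 and 7.51 in SID. The SCR arrays of replicates 1 and 2 stood above all others, and SID was near UT throughout. SID minus SCR was -0.77, -1.51 and 0.12, with -1.14 in replicates 1 and 2 (SE 0.20, limma adjusted p = 0.00549 with replicate 3 as groups of its own, and 0.0508 with the 4 arrays alone). PLXNA1, the usual partner of NRP1 in SEMA3A signaling, had differences of 0.26, -1.03 and 0.24, which did not share a sign.

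NRP1, the receptor subunit that binds SEMA3A and VEGFA, had signals of 10.38, 10.22 and 10.27 in UT, of 11.66, 11.70 and 10.08 in SCR, and of 11.29, 11.04 and 10.08 in SID. Replicates 1 and 2 of both peptides were above UT, with SID between UT and SCR, and replicate 3 of both was just below UT. SID minus SCR was -0.37, -0.66 and 0.00 (mean -0.34, SE 0.48, n = 3 per group, limma adjusted p = 0.919), and -0.51 in replicates 1 and 2 (SE 0.11, limma adjusted p = 0.0122, and 0.0593 with the 4 arrays alone), under the fold limit. NRP2, the neuropilin that binds SEMA3F, had signals of 8.75, 8.66 and 8.83 in UT, of 9.12, 9.55 and 8.29 in SCR, and of 9.68, 9.90 and 8.41 in SID. Here SID was above SCR in each replicate, by 0.55, 0.36 and 0.12 (mean 0.34, SE 0.44, n = 3 per group, limma adjusted p = 0.906), and the second NRP2 probe gave 0.28, 0.55 and -0.01. The groups overlapped for both neuropilins.

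For the other plexins the mean differences between SID and SCR lay between -0.07 and 0.35. PLXNA3 had the highest of them, with 0.85, 0.10 and 0.10 in the 3 replicates. PLXNB1 and PLXNB2, receptors of class 4 semaphorins, and PLXNB3, a receptor of SEMA5A, had means of 0.03, 0.27 and 0.21. PLXND1 had 0.18, and PLXNC1, the receptor of SEMA7A, had -0.05 at signals of 5.35 to 5.92, in the dimmest 25% of probes. PLXNA4 stayed between 7.06 and 7.34 on all arrays.

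Set side by side, ligands and receptors had similar medians and unlike ranges. The mean SID minus SCR difference was above 0 for 11 of 19 ligands (median 0.02, range -2.19 to 0.97) and for 6 of 11 receptors (median 0.03, range -0.72 to 0.35), beside a median of 0.02 over all 19460 probes. Without replicate 3 it was above 0 for 11 ligands (median 0.09) and 5 receptors (median -0.02), beside a median of 0.04 over all probes. The median size of the difference, sign aside, was 0.18 for the 30 genes and 0.11 for all probes. It was 0.09 for ligands and 0.21 for receptors, so the wider range of the ligands did not go with a larger typical difference. Without replicate 3 it was 0.20 for ligands and 0.36 for receptors, beside 0.18 for all probes. These medians are a description with no test, since genes are not replicates.

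On all 9 arrays limma called none of the 30 genes between SID and SCR, and 0% of all probes. At an unadjusted p under 0.05, 1 of the 30 genes (SEMA3D) and 7.57% of all probes passed. By the mean difference alone, 2 genes were past the fold limit, beside 1.62% of probes. Both (SEMA3A and SEMA3D) were below -1, beside 1.07% of probes, and none was above 1, beside 0.545%. In each of replicates 1 and 2, SEMA3A and SEMA3D were below -1, beside 2.12% of probes, and SEMA3B was above 1, beside 1.34%. Not 1 of the 30 genes had all SID arrays above or all below the SCR arrays, which 4.01% and 1.65% of probes had. With replicate 3 of SCR and SID as groups of their own, limma called 5 of the 30 genes in replicates 1 and 2 beside 5.26% of all probes. Higher in SID were SEMA3B and SEMA4G (1.95% of probes), and lower were SEMA3A, SEMA3D and PLXNA2 (3.31%). With the 4 arrays alone, 3 genes were called beside 4.41% of probes, SEMA3B higher (1.77% of probes) and SEMA3A and SEMA3D lower (2.64%). The test of replicates 1 and 2 against replicate 3 called 2 genes beside 4.87% of probes, none higher (1.72%) and SEMA3A and SEMA3D lower (3.15%). In replicate 3 none of the 30 genes was past 1 in either direction, as were 0% of probes above 1 and 0.293% below -1. Markers of other cell types differed between the same arrays. The mean signal of the 9 luminal and hormone receptor markers was 9.79 and 10.14 in SCR replicates 1 and 2, 9.02 and 9.08 in SID replicates 1 and 2, and 8.86 to 8.92 on the other arrays, and that of the 5 endothelial markers was 7.39 and 7.45 in SCR replicates 1 and 2 and 6.72 to 6.86 elsewhere. In the mean of replicates 1 and 2, 7 of the 9 luminal markers had a SID signal below that of SCR, and 4 of the 5 endothelial ones were in the dimmest 25% of probes. Of the luminal markers, GATA3, FOXA1 and CDH1 were called lower in SID with the 4 arrays alone, and of the endothelial ones CDH5. The part of either list in the differences of SEMA3A, SEMA3D, SEMA3B and PLXNA2 was not tested. The 6 fibroblast markers ranged in mean from 7.03 to 7.56 over the 9 arrays. The mean of the 5 leukocyte markers was 7.69 to 7.79 in the 4 peptide arrays of replicates 1 and 2 and 7.04 to 7.27 in the others. Of these 5 markers, 3 were in the dimmest 25% of probes, among them PTPRC, which defines leukocytes. CD68, with signals of 9.99 to 12.98, was above the median probe.

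Against untreated cells, the arrays of both peptides showed similar large differences in 3 ligands in replicates 1 and 2. SEMA6D and SEMA5A were far lower than in UT and SEMA7A was far higher, with SCR and SID alike, and replicate 3 showed little of this. These comparisons share the UT arrays, and values are given side by side for that reason. For replicates 1 and 2 they also compare arrays of different sets, so peptide treatment and array set cannot be told apart there.

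SEMA6D, a membrane-bound ligand of PLXNA1, had signals of 10.45, 10.34 and 10.60 in UT, of 7.19, 7.08 and 9.98 in SCR, and of 6.998, 7.16 and 10.00 in SID. All 6 peptide arrays were below all UT arrays, by much less in replicate 3. SID minus UT was -2.41 and SCR minus UT was -2.38 (SE 0.99 each, n = 3 per group, limma adjusted p = 0.388 and 0.344). In replicates 1 and 2 they were -3.38 and -3.33 (SE 0.10 each, limma adjusted p = 2.8e-07 and 3.49e-07), and in replicate 3 they were -0.46 and -0.48.

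SEMA5A, a ligand of PLXNB3 with thrombospondin repeats, had signals of 9.92, 9.73 and 9.91 in UT, of 7.80, 7.96 and 9.66 in SCR, and of 7.83, 7.53 and 9.81 in SID. SCR replicate 3 was below UT and SID replicate 3 lay within it. The differences from UT were -1.47 for SID and -1.38 for SCR (SE 0.68 each, n = 3 per group, limma adjusted p = 0.388 and 0.375), and -2.18 and -1.97 in replicates 1 and 2 (SE 0.12 each).

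SEMA7A, a membrane-anchored ligand of integrin beta 1 and PLXNC1, had signals of 8.54, 8.67 and 8.62 in UT, of 11.18, 11.29 and 8.57 in SCR, and of 10.73, 11.30 and 8.78 in SID. Replicates 1 and 2 of either peptide were more than 2 above every UT array, and replicate 3 was not. The differences from UT were 1.66 for SID and 1.74 for SCR (SE 0.86 each, n = 3 per group, limma adjusted p = 0.395 and 0.375), and 2.41 and 2.63 in replicates 1 and 2 (SE 0.16 each).

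**Figure D2:**
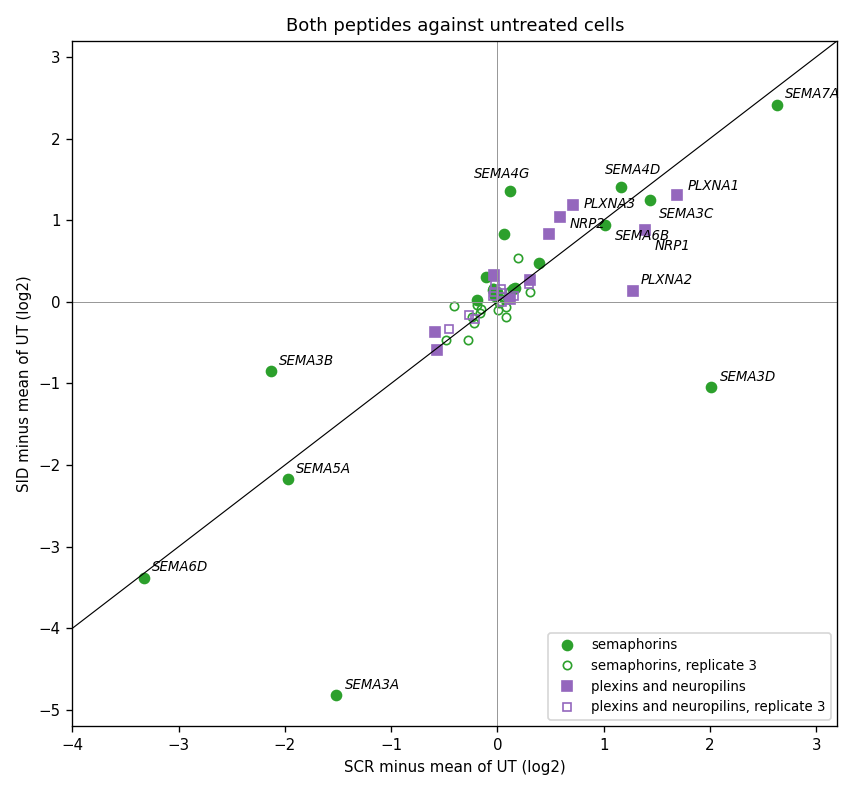
Difference in log2 signal from the mean of the 3 UT arrays under SCR (horizontal axis) and SID (vertical axis) for 19 semaphorins (green circles) and 11 plexins and neuropilins (purple squares). Filled symbols are means of replicates 1 and 2, open symbols are replicate 3, and the line marks equal differences; names are given where a filled value is past 1 on either axis. SEMA6D, SEMA5A and SEMA7A lie near the line, SEMA3A at -1.52 and -4.82 and SEMA3D at 2.01 and -1.05 lie off it, and open symbols lie within 0.54 of 0.

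For SEMA3A, SEMA3D and SEMA3B the 2 peptides lay at unequal distances from UT. In replicates 1 and 2 SEMA3A was 4.82 below UT in SID (log2 difference -4.82, SE 0.20) and 1.52 below it in SCR (log2 difference -1.52, SE 0.20). SEMA3D was at -1.05 from UT in SID and at 2.01 in SCR (SE 0.21 each). SEMA3B was at -0.85 from UT in SID and at -2.13 in SCR (SE 0.14 each). Over all 3 replicates SEMA3A differed from UT by -3.28 in SID and -1.09 in SCR (SE 1.18 each, n = 3 per group, limma adjusted p = 0.388 and 0.679). SEMA3D then differed by -0.71 and 1.21 (SE 0.66 each), and SEMA3B by -0.39 and -1.36 (SE 0.67 each).

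Receptors and the remaining ligands were, where they differed from UT in replicates 1 and 2, mostly higher. PLXNA1 had signals of 9.57, 9.58 and 9.64 in UT, of 10.96, 11.62 and 9.57 in SCR, and of 11.22, 10.59 and 9.81 in SID, and differed from UT by 0.94 in SID and 1.12 in SCR (SE 0.53 each, n = 3 per group, limma adjusted p = 0.410 and 0.366), or 1.31 and 1.69 without replicate 3. NRP1 was at 0.88 in SID and 1.39 in SCR in replicates 1 and 2 (SE 0.10 each), and NRP2 at 1.04 and 0.59 (SE 0.14 each). In replicate 3 NRP1 was at -0.21 under both, and NRP2 at -0.34 and -0.46. PLXNA3 was at 1.19 in SID and 0.71 in SCR, and PLXNA2 at 0.13 and 1.27. Of the ligands, SEMA3C was at 1.25 in SID and 1.44 in SCR, SEMA4D at 1.41 and 1.16, SEMA6B at 0.94 and 1.01, and SEMA4G at 1.35 and 0.12. Below UT were PLXNB1 at -0.59 and -0.57 and PLXND1 at -0.38 and -0.59.

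On all 9 arrays limma called none of the 30 genes against UT for either peptide, and 0% of probes. At an unadjusted p under 0.05, 3 genes passed for SID (PLXNB3, SEMA3A and SEMA6D) beside 12.5% of probes, and 2 for SCR (PLXNA2 and SEMA6D) beside 14.4%. By the mean difference, 4 genes were past the fold limit in SID (6.92% of probes) and 7 in SCR (6.12%). SEMA7A was above 1 in SID (3.78% of probes) and SEMA3A, SEMA5A and SEMA6D were below -1 (3.13%). In SCR, PLXNA1, SEMA3D and SEMA7A were above 1 (3.45%) and SEMA3A, SEMA3B, SEMA5A and SEMA6D were below -1 (2.66%). In replicates 1 and 2, with replicate 3 as groups of its own, limma called 11 genes for SID beside 13.3% of probes, 7 higher (6.93%) and 4 lower (6.4%), and 12 genes for SCR beside 11.4% of probes, 8 higher (6.58%) and 4 lower (4.82%). The genes called lower were all ligands, but ligands were also called higher, 4 for SID and 5 for SCR. Each comparison called 3 receptors, all higher. With so small a share of probes called lower, none among 11 receptors says little about receptors. Each of these calls compares arrays of different sets. SEMA7A was more than 1 above all UT arrays on all 4 peptide arrays of replicates 1 and 2 (3.15% of probes), and SEMA3A, SEMA5A and SEMA6D were more than 1 below (2.44%).

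Other genes of semaphorin signaling showed few differences between SID and SCR. None of the 62 genes measured in 4 further lists was called on 9 arrays. With the 4 arrays of replicates 1 and 2 alone, limma called VEGFA and RRAS, both higher in SID, beside 4.41% of all probes. Of all probes, 1.77% were called higher and 2.64% lower. VEGFA, which like SEMA3A binds NRP1, differed by 1.26, 1.20 and 0.11 in replicates 1, 2 and 3 (1.23 in replicates 1 and 2, SE 0.11, limma adjusted p = 0.0174). RRAS, a small GTPase that promotes integrin adhesion and is reported to be inactivated by plexins, differed by 1.83, 1.57 and 0.18 (1.70 in replicates 1 and 2, SE 0.24, limma adjusted p = 0.0263).

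Over all 19460 probes, the mean of 3 replicates was above 0 for 10742, 7.57% had an unadjusted p under 0.05 and 0.545% were above 1, and the counts below are to be read beside these. Of 5 measured growth factor ligands of neuropilins, 4 had a mean difference above 0, and 2 (VEGFA and VEGFB) had an unadjusted p under 0.05. VEGFB differed by 0.67 in the mean of 3 replicates and by 0.93 in replicates 1 and 2, and VEGFC, the lymphatic growth factor, by -0.33 and -0.37. For VEGFB the limma adjusted p with the 4 arrays alone was 0.0425, under the fold limit. Of 16 measured co-receptors and binding partners, 12 were above 0 and none had an unadjusted p under 0.05. With all replicates and with replicates 1 and 2, the neural adhesion molecule L1CAM differed by 0.77 and 0.99, MST1R, a receptor tyrosine kinase bound by plexins, by -0.55 and -0.71, and ITGB1, the integrin subunit bound by SEMA7A, by 0.24 and 0.38. Of 7 proteases that cleave or shed semaphorins, 4 were above 0 and 1 had an unadjusted p under 0.05. FURIN, the convertase that cleaves class 3 semaphorins, differed in the same way by 0.60 and 0.72, PCSK5 by -0.48 and -0.73, and MMP14, which sheds SEMA4D, by 0.45 and 0.64. Of 34 measured effectors of plexins, 21 were above 0, 1 had an unadjusted p under 0.05 and 1 (RRAS) had a mean past 1, with 1.19. The tyrosine kinase FYN differed by 0.52 with all replicates and by 0.72 in replicates 1 and 2 (limma adjusted p = 0.0447 with the 4 arrays alone, under the fold limit). CDK5, a kinase of the collapse response to SEMA3A, differed by -0.52 with all replicates and by -0.95, -0.94 and 0.33 in replicates 1, 2 and 3. Its difference of -0.95 in replicates 1 and 2 had a limma adjusted p of 0.0183 with the 4 arrays alone and was under the fold limit. Further genes of these lists had a limma adjusted p under 0.05 there and stayed under the fold limit. They lay in both directions, such as ADAM10 at 0.69 and GSK3B at -0.54. The medians of the 4 lists were 0.00, 0.06, 0.07 and 0.04, beside 0.02 for all probes.

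**Figure D3:**
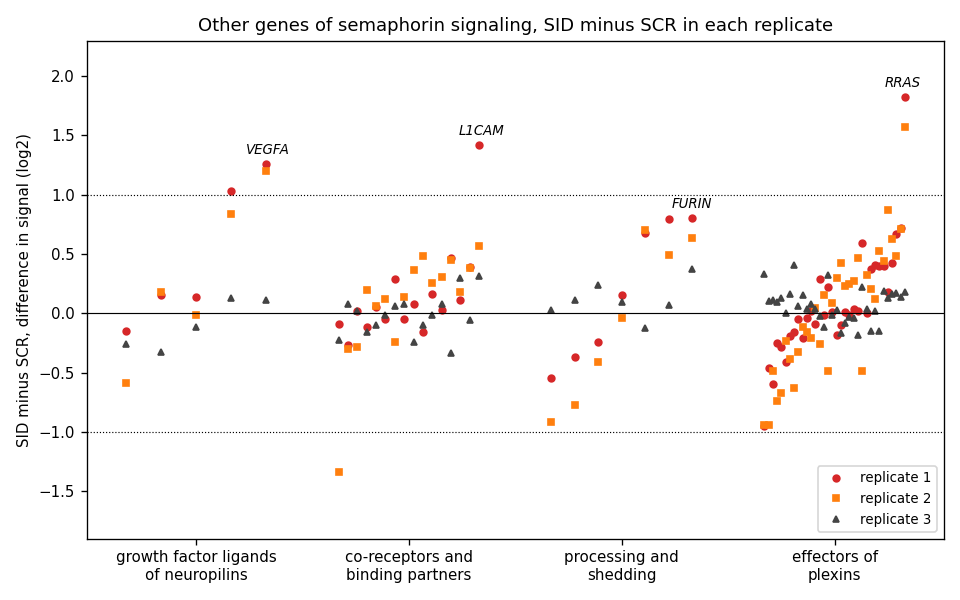
SID minus SCR difference in log2 signal (vertical axis) in replicate 1 (red circles), replicate 2 (orange squares) and replicate 3 (dark triangles) for 5 growth factor ligands of neuropilins, 16 co-receptors and binding partners, 7 proteases of processing and shedding, and 34 effectors of plexins, ordered within each list by their mean. Dotted lines mark the fold limit of 1, and the gene with the largest mean difference of each list is named. RRAS reaches 1.83 and 1.57 and VEGFA 1.26 and 1.20 in replicates 1 and 2, and both are under 0.2 in replicate 3.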

How the data were processed

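Values are log2 signals per transcript cluster as deposited by the authors, whose processing notes name Affymetrix Expression Console, RMA and Transcriptome Analysis Console without versions. No source states the log2 scale, which was inferred from the range of the values. They run from 3.752 to 14.94. The study analysed single probes in another tool, which cannot be repeated from these signals. Its fold limit was kept.

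Of 33297 probes, the 19460 with exactly 1 gene symbol entered 1 limma fit (limma 3.58.1, lmFit then eBayes, under R 4.3.3) of 3 groups of 3 arrays, and p-values were adjusted over all these probes (Benjamini-Hochberg). The number of arrays limits the precision. A second fit had 5 groups, with replicate 3 of SCR and of SID apart. Each of these is 1 array, assumed to vary like the others. The genes, lists, comparisons and alternatives were chosen with earlier results of these arrays known. Values are given by array for genes past the fold limit in a mean or, between SID and SCR, in both of replicates 1 and 2, for SEMA3A, NRP1 and NRP2, and also for SEMA4G and PLXNA2, chosen after their values were seen. Of each further list, the 3 genes with the largest mean SID minus SCR difference are named.

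Deviations from the group means of same-numbered SCR and SID arrays correlated at 0.774, 0.575 and 0.791. Between SCR replicate 1 and SID replicate 2 it was 0.604, and between SCR replicate 2 and SID replicate 1 it was 0.748, so this largely follows the array sets. Same-numbered UT and peptide arrays correlated at -0.07 to 0.21. The procedure was tested on simulated data with noise drawn independently for each array. Those data held no array sets, so the test does not show how the procedure behaves with them. Figures were drawn with matplotlib 3.10.9.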

Additional observations from a re-analysis of the deposited data

Results flagged for a closer look

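The SID minus SCR difference of SEMA3A in replicates 1 and 2, less that in replicate 3, was -3.36 (limma adjusted p = 0.00615). It was singled out because the same contrast differed between sets of replicates by a test of that difference. SID was below SCR in 2 of 3 replicates. The same held for SEMA3D, with -3.42 (limma adjusted p = 0.00729), also lower in 2 of 3 replicates. Replicate 3 has 1 array per peptide, so that its own spread is not known. How its arrays differ in handling from the other arrays was not tested. The replicates were split this way after replicate 3 was seen to stand apart on these same arrays.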

How the results depend on the processing

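Limits: on 9 arrays none of the 30 genes was called, and the lowest adjusted p of any probe between SID and SCR was 0.657, with 1474 probes at an unadjusted p under 0.05. A Student t-test, which the methods name for 2 groups in general and not for the arrays, also called 0 probes (378 unadjusted). The calls in replicates 1 and 2 rest on 2 arrays per peptide.

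The number of probes called between SID and SCR moved to 761 with array weights (whose estimate did not converge), 1024 with replicate 3 as groups of its own, 859 with replicates 1 and 2 alone, and 0 to 648 with each array left out (648 when SID replicate 3 was left out, 223 when SCR replicate 3 was). The number of the 30 genes called moved to 3, 5, 3 and 0 to 2 in the same order (SEMA3A and SEMA4G without SID replicate 3, PLXNA2 and SEMA3D without SCR replicate 3). For SID minus UT, probes called were 2389 with array weights, 2593 with replicate 3 as groups of its own, 1 with the array set as a block and 0 to 1946 with each array left out, and genes called were 8, 11 and, with each array left out, 0 to 6 (6 without SID replicate 3). For SCR minus UT, probes called were 2116, 2217 and 0 to 1071, and genes called were 9, 12 and 0 to 7 (7 without SCR replicate 3). For replicates 1 and 2 against replicate 3, the 948 probes called became 550 to 1545 with each array left out, at 550 without UT replicate 3, at 600 when SCR replicate 2 was left out and at 1545 when SID replicate 1 was, and 2 to 3 genes were called.

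A replicate block called 0 probes in each of the 3 comparisons (lowest adjusted p 0.597, 0.210 and 0.202) and changed no call. Values that changed sign were all uncalled. They were PLXNA1 in SID minus SCR with array weights (0.050), and, with the array set as a block, SID minus UT of NRP1 (-0.38), NRP2 (-0.23) and SEMA3B (0.85) and SCR minus UT of NRP1 (-0.036), NRP2 (-0.57) and SEMA3A (0.88). With each array left out, SID minus SCR ranged from -0.87 to 0.019 for NRP1, -0.0046 to 0.80 for NRP2, -0.75 to 0.27 for PLXNA1, -0.80 to 0.51 for SEMA5A, -1.003 to 0.92 for SEMA6D and -0.96 to 0.67 for SEMA7A, and SCR minus UT of NRP2 from -0.041 to 0.59. Replicates 1 and 2 against replicate 3 for SEMA6D gave 0.024 after quantile normalization and -0.15 to 0.011 with each array left out. The cause of these changes was not tested. Replicates 1 and 2 alone give no value against UT other than the fit with 5 groups, and replicate 3 of SCR and SID cannot be left out of the test against it.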
